A study of Mus musculus with 6 samples.

Results

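Genes of the androgen receptor program were compared between parental 22Rv1 cells and their BL-B01D1–resistant subline. The set held 33 gene symbols, 7 of them partners or cofactors of the receptor and 26 of them target genes, and members were found by matching each symbol to the gene name in the deposited count table. The table listed 32 of the 33 among its 58735 genes, and HERC3P had no row there.

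The 22Rv1 line was derived from human prostate carcinoma and carries both full-length androgen receptor and splice variants without the ligand-binding domain. BL-B01D1 is a bispecific antibody–drug conjugate that binds EGFR and HER3 and delivers a topoisomerase I inhibitor. RNA-Seq covered 3 libraries of parental cells, which were given vehicle, and 3 libraries of the resistant subline (BL-B01D1_R), which was grown under rising concentrations of BL-B01D1. Whether BL-B01D1 was present when the resistant cells were harvested is not stated. An effect of the drug at harvest therefore cannot be told apart from a lasting change of the subline. All libraries came from the same cell line, the subline was obtained in 1 selection, and the sources used here do not say whether the libraries of a group were separate cultures, so p-values cover only the spread between these libraries.

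The androgen receptor is a nuclear receptor that binds DNA once androgen has loaded it and turns on the genes that define the secretory luminal cell of the prostate. It needs pioneer factors, which open chromatin at its binding sites, and coregulators, which it recruits to raise or dampen transcription. In prostate cancer its target genes serve as a readout of receptor activity, although several of them also respond to other steroid receptors.

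Total counts per library ranged from 13821639 to 17251491, and the floor of 3 counts was worth 0.174 to 0.216 CPM, the unit of levels after TMM scaling to a common library size. Luminal epithelial markers (KRT8, KRT18, EPCAM, HOXB13, FOLH1 and CDH1) summed to between 2193 and 2232 CPM in parental libraries and to between 2215 and 2255 CPM in resistant libraries. Within this sum single markers moved in both directions. HOXB13 went from 439 to 315 CPM on average and CDH1 from 368 to 434 CPM. KRT18 and EPCAM also had lower means in resistant cells, and KRT8 and FOLH1 had higher ones. Summed basal, leukocyte and endothelial markers stayed under 0.3 CPM in every library, with KRT5, CD3E and CDH5 at 0 counts in all of them. The neuroendocrine list (5 markers) summed to 135 to 150 CPM in parental and 110 to 118 CPM in resistant libraries. The fibroblast list (4 markers) summed to 111 to 114 CPM and to 39.0 to 43.4 CPM, with COL1A2 at 0 to 2 counts in every library. CHGA (39.4 and 8.18 CPM on average) and LUM (96.0 and 28.8 CPM) made up most of these differences. The part of these marker differences in the results below was not tested, and fewer cells that express a gene cannot be told apart from less RNA per cell.

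The low-count filter left 30 of the 32 members found. Of these 30, 10 rose in resistant cells and 7 fell at an FDR of less than 0.05 from edgeR's quasi-likelihood test, and 13 did not pass. Among all 17142 genes tested, 17.1% rose and 18.4% fell at that FDR, so the share of members that fell (23.3%) lay nearer to the background than the share that rose (33.3%). An absolute log2 fold change greater than 1 was also reached by 1 member that rose (PLPP1) and by 0 members that fell, against backgrounds of 2.53% and 2.84%. With an unadjusted p under 0.05 in place of the FDR the latter count was again 0, and it was 0 with limma-voom and with DESeq2.

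A lower fold threshold was also read. An FDR of less than 0.05 with an absolute log2 fold change over 0.5 was reached by 7 members that rose, which is 23.3% of those tested against 5.63% of all genes. They were PLPP1, FKBP5, TMPRSS2, PMEPA1, ELL2, BMPR1B and NCOA2. By the same measure 0 members fell, against 6.29% of all genes, although 1 (NNMT) had an unadjusted p under 0.05 at that size, and ACPP, NNMT or HOMER2 passed in some of the other fits. Over the 30 members the median log2 fold change was 0.07, and over all genes tested it was 0.004. The members were chosen with earlier results of these data known. Their shares beside those of all genes are therefore a description and not an independent comparison.

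Resistant libraries lay entirely above parental ones in 11 tested members and entirely under them in 9, against 22.1% and 22.8% of all tested genes. In these counts the members were 36.7% and 30.0% of those tested. The plot of levels by library shows the gap between the lines for each gene.

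**Figure D1:**
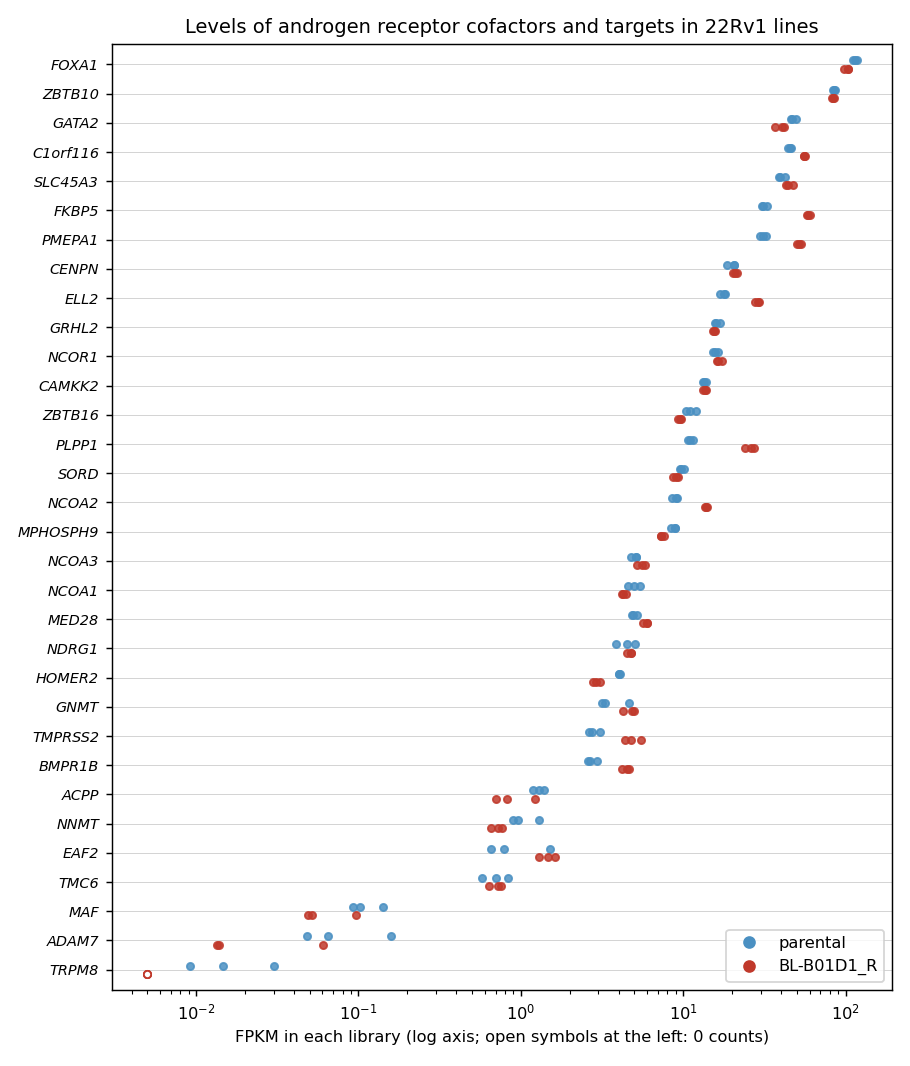
Level of each of the 32 members in each of the 6 libraries, in FPKM (the count scaled to gene length and library size) on a log axis, with parental libraries in blue and BL-B01D1_R libraries in red. Levels ran from over 100 FPKM for FOXA1 to under 0.1 FPKM for TRPM8, which had 0 counts in all resistant libraries, and the red points of FKBP5, PMEPA1, ELL2, PLPP1, NCOA2, TMPRSS2 and BMPR1B lie clear to the right of the blue ones.

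Members differed in level by more than 3 orders of magnitude. Per gene length, FOXA1 had the highest level in both lines, at 114 FPKM in parental and 101 FPKM in resistant cells, followed by ZBTB10 at 84.8 and 83.8 FPKM. FKBP5 stood at place 6 among the members in parental cells (31.5 FPKM) and at place 3 in resistant cells (58.9 FPKM), while GATA2 went from place 3 (47.4 FPKM) to place 7 (39.6 FPKM). Both group means were at least 1 FPKM for 25 members, and 4 members, TMC6, MAF, ADAM7 and TRPM8, were under 1 FPKM in both lines.

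The pioneer factors and transcription factor partners of the receptor did not rise. FOXA1, the forkhead factor that opens chromatin for the receptor (ENSG00000129514; chromosome 14 of hg38, 37589984 to 37596059, reverse strand), had 468, 443 and 455 CPM in the parental libraries and 411, 410 and 390 CPM in the resistant libraries. All resistant values were under all parental values, and the log2 fold change was −0.17 (SE 0.029, FDR 4.32e-06), a level 1.13-fold lower. TTC6, which overlaps FOXA1 on the opposite strand, had up to 528 counts and a log2 fold change of −0.10. GATA2, a zinc finger factor that works upstream of the receptor and beside it on enhancers (ENSG00000179348; chromosome 3, 128479427 to 128493185, reverse strand), had 206, 208 and 220 CPM in parental and 180, 164 and 187 CPM in resistant libraries. The groups did not overlap, and its log2 fold change of −0.26 (SE 0.038, FDR 4.90e-07) had the lowest value among the 7 partners and cofactors. The antisense gene GATA2-AS1 overlaps it and had a log2 fold change of −0.24, and since the sources do not say that counting used strand, reads of the pair cannot be told apart. The same limit holds for every other member named here with a gene on the opposite strand, among them PLPP1, CENPN and GNMT.

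GRHL2, a grainyhead factor of epithelial identity, had 94.7, 97.1 and 102 CPM in parental and 94.5, 93.7 and 93.0 CPM in resistant libraries. Its libraries separated by less than 0.3 CPM at the nearest point, and the log2 fold change of −0.06 (95% interval −0.15 to 0.02) did not pass the test.

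The 3 members of the p160 coactivator family, which bind the receptor and bring in histone acetyltransferases, had different values. NCOA2 (also known as TIF2; ENSG00000140396; chromosome 8, 70109762 to 70403805, reverse strand) had 91.3, 85.8 and 89.98 CPM in parental cells and 136, 138 and 141 CPM in resistant cells. This 1.55-fold rise (log2 fold change 0.63, SE 0.040, FDR 5.88e-17) exceeded the spread between libraries, which was under 3 CPM (SD, n = 3) in each group. NCOA1 (SRC-1) went the other way, from 39.3, 42.9 and 46.5 CPM to 36.5, 38.5 and 36.2 CPM, with a log2 fold change of −0.21 (SE 0.066, FDR 0.0113). Its nearest libraries were less than 1 CPM apart, and the fall no longer passed without parental library 3 (log2 fold change −0.15, FDR 0.106) or without resistant library 1 (−0.19, FDR 0.0502).

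NCOA3 (SRC-3) had 40.1, 43.1 and 43.2 CPM in parental and 46.9, 48.7 and 43.8 CPM in resistant libraries. Its log2 fold change of 0.14 (95% interval 0.02 to 0.26, FDR 0.0686) missed the threshold, and it passed without resistant library 3 (0.18, FDR 0.0341). NCOR1, the scaffold of a corepressor complex that recruits histone deacetylase, had 241, 236 and 252 CPM in parental and 253, 268 and 248 CPM in resistant libraries, and these ranges overlapped. Its log2 fold change was 0.08 (95% interval 0.01 to 0.14, FDR 0.0721), and it passed without parental library 3 (0.10, FDR 0.0248) and without resistant library 3 (0.10, FDR 0.0313). NCOR1 shares part of its locus with TTC19 on the opposite strand, which had up to 1551 counts and a log2 fold change of 0.10. Of the 7 partners and cofactors, 1 rose (14.3%, against 17.1% of all genes tested), 3 fell (42.9%, against 18.4%) and 3 did not pass, with a median log2 fold change of −0.06. The share that rose was near that of all genes, and with 7 genes each gene moves these shares by 14.3 percentage points.

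**Figure D2:**
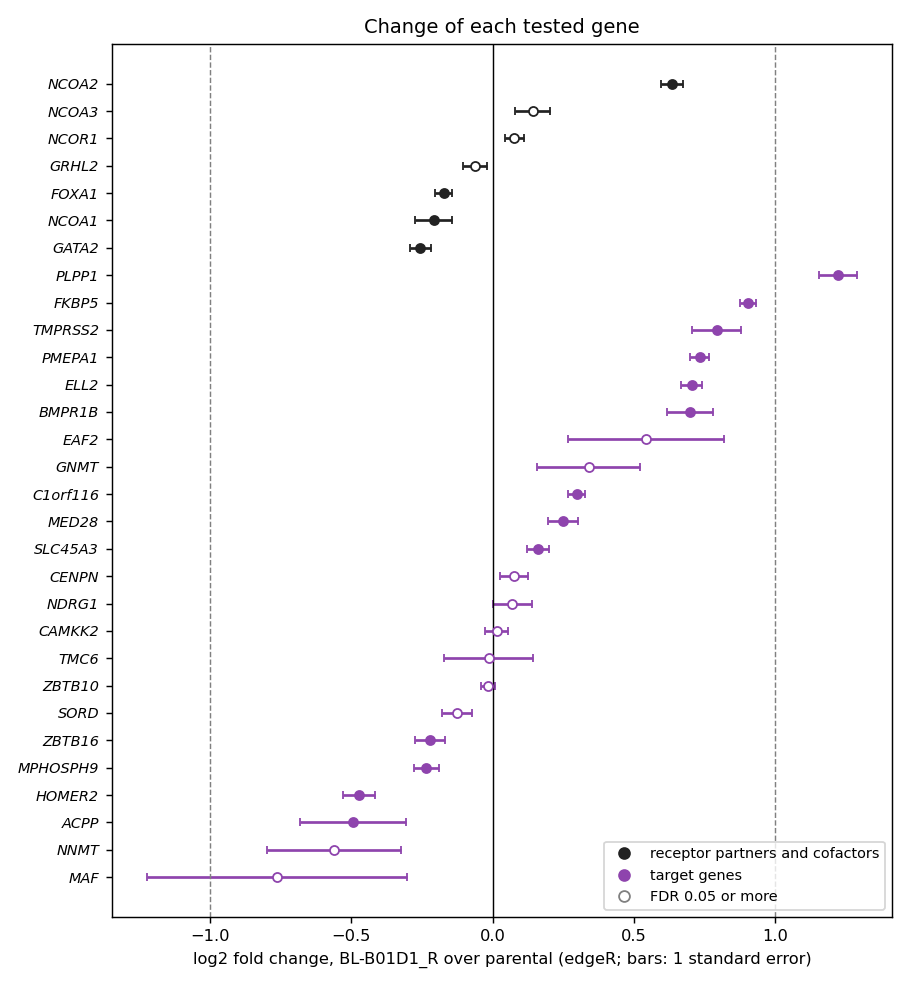
Log2 fold change of BL-B01D1_R over parental cells for the 30 tested members, with partners and cofactors in black and target genes in purple. Bars are 1 standard error, filled symbols have an FDR of less than 0.05 in edgeR's test, dashed lines mark an absolute value of 1, and PLPP1 (1.22) is the only symbol beyond them.

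Among the target genes, 25 of 26 were in the table and 23 were tested. Of these, 9 rose (39.1%, against 17.1% of all genes tested), 4 fell (17.4%, against 18.4%) and 10 did not pass, with a median log2 fold change of 0.08. The share of target genes that fell was thus near that of all genes.

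PLPP1, a membrane phosphatase of lysophosphatidic acid and related lipids (ENSG00000067113; chromosome 5, 55424854 to 55535050, reverse strand), had the largest fold of the members. It had 23.1, 22.2 and 21.5 CPM in the parental libraries and 52.6, 54.8 and 48.6 CPM in the resistant libraries. The groups did not overlap, and the log2 fold change was 1.22 (SE 0.068, FDR 1.14e-18), a 2.33-fold rise. MTREX, which overlaps it on the opposite strand and had more counts than PLPP1, had a log2 fold change of −0.11.

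FKBP5 encodes a cochaperone of HSP90 in steroid receptor complexes and is among the most used readouts of receptor activity (ENSG00000096060; chromosome 6, 35573585 to 35728583, reverse strand). Its levels were 327, 330 and 349 CPM in parental and 617, 621 and 641 CPM in resistant libraries. The groups did not overlap, and the log2 fold change was 0.902 (SE 0.029, FDR 3.19e-27), a 1.87-fold rise. FKBP5 alone made up 9.05% of the summed CPM of the 32 members in parental cells and 14.7% in resistant cells.

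TMPRSS2, a type II transmembrane serine protease whose androgen-driven promoter takes part in gene fusions in many prostate cancers, rose 1.73-fold (ENSG00000184012; chromosome 21, 41464551 to 41531116, reverse strand). It had 16.2, 16.9 and 18.8 CPM in parental and 33.5, 29.1 and 26.8 CPM in resistant libraries, with a log2 fold change of 0.79 (SE 0.086, FDR 4.74e-10). The resistant libraries spread more than the parental ones (SD of 3.42 against 1.36 CPM, n = 3 each) but did not overlap them.

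PMEPA1, which dampens SMAD signaling downstream of transforming growth factor-β (ENSG00000124225; chromosome 20, 57648392 to 57711536, reverse strand), had 181, 168 and 174 CPM in parental and 289, 282 and 296 CPM in resistant libraries. The log2 fold change was 0.73 (SE 0.033, FDR 1.10e-21), a 1.66-fold rise with no overlap between the groups. NKILA, an antisense gene at this locus, had at most 61 counts in any library and a log2 fold change of 0.54. BMPR1B, a type I receptor for bone morphogenetic proteins (ENSG00000138696; chromosome 4, 94757968 to 95158448, forward strand), had 16.2, 18.6 and 16.9 CPM in parental and 26.5, 28.6 and 29.1 CPM in resistant libraries, with a log2 fold change of 0.699 (SE 0.082, FDR 2.88e-09). Its groups did not overlap either.

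ELL2, an elongation factor for RNA polymerase II (ENSG00000118985; chromosome 5, 95885098 to 95962071, reverse strand), had 123, 130 and 132 CPM in parental and 202, 211 and 214 CPM in resistant libraries, with a log2 fold change of 0.704 (SE 0.036, FDR 8.88e-20) and groups that did not overlap. Its binding partner EAF2 was much less abundant, with 24, 45 and 16 counts in parental and 43, 42 and 37 counts in resistant libraries. The EAF2 ranges overlapped because of parental library 2, and the log2 fold change of 0.54 did not pass (95% interval −0.01 to 1.10, FDR 0.125). Without that library it was 0.999 and passed (FDR 0.0110), so the data do not settle whether EAF2 moved with ELL2.

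**Figure D3:**
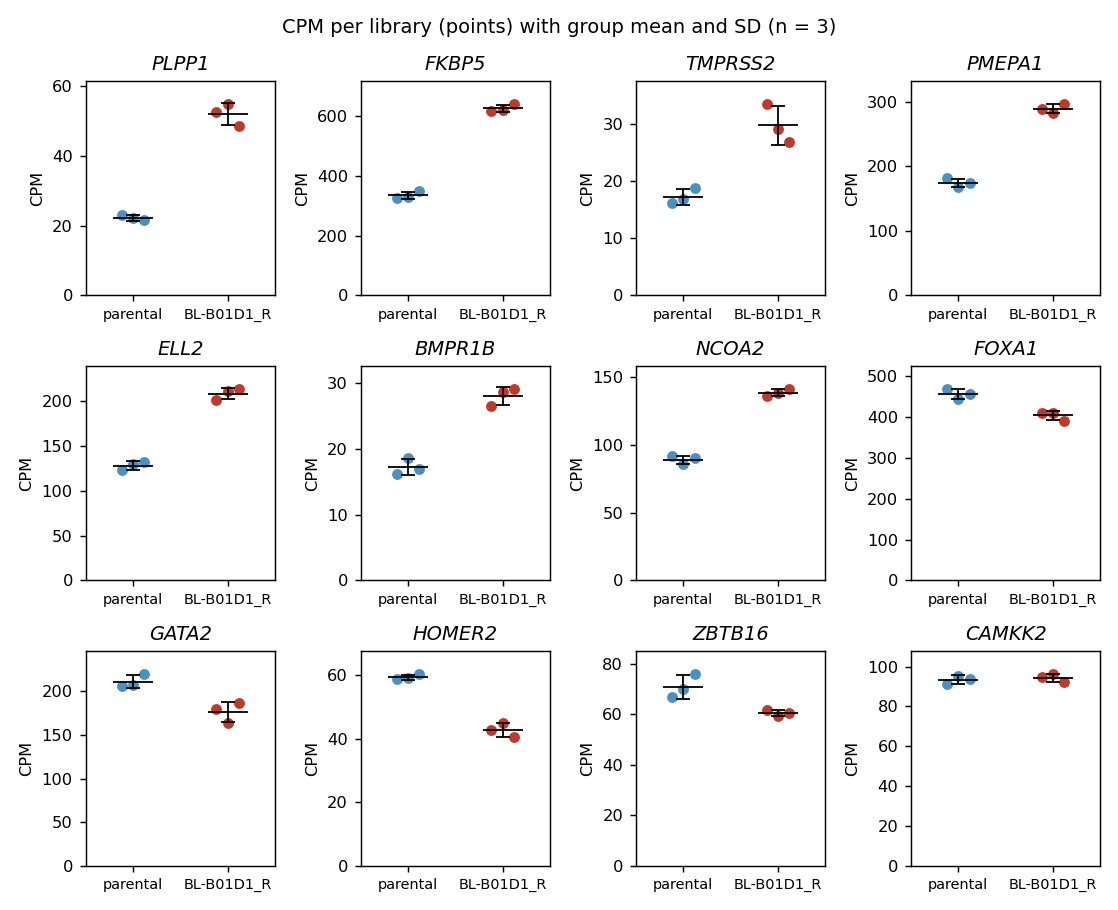
CPM in each library (points) with the group mean and SD (n = 3) for the 7 members that rose by more than 0.5 on the log2 scale and for FOXA1, GATA2, HOMER2, ZBTB16 and CAMKK2. Each vertical axis starts at 0, and the libraries of the lines are apart in all panels but that of CAMKK2, with levels of 93.4 ± 2.14 and 94.3 ± 1.88 CPM.

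Among the remaining targets that rose, the changes were small. C1orf116, also known as SARG for its specific regulation by androgen, went from 248 ± 5.10 CPM (SD, n = 3) to 305 ± 2.92 CPM (log2 fold change 0.30, SE 0.030, FDR 7.34e-11). MED28, a subunit of the Mediator complex, went from 54.6 ± 1.88 to 64.7 ± 2.21 CPM (log2 fold change 0.25, FDR 1.94e-04), and FAM184B, which overlaps it on the opposite strand with up to 70 counts, had a log2 fold change of −1.35. SLC45A3, which encodes the prostate-specific transporter prostein, went from 149 ± 7.19 to 166 ± 8.24 CPM (log2 fold change 0.16, FDR 9.65e-04), but this rise did not pass with limma on log2(FPKM + 1) (FDR 0.0635). In all 3 genes the libraries of the lines did not overlap.

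The targets that fell were HOMER2, MPHOSPH9, ZBTB16 and ACPP. HOMER2, a scaffold of glutamate receptor signaling (ENSG00000103942; chromosome 15, 82836946 to 82986153, reverse strand), had 58.6, 59.1 and 60.3 CPM in parental and 42.7, 44.9 and 40.6 CPM in resistant libraries, and its log2 fold change was −0.47 (SE 0.057, FDR 4.77e-09). MPHOSPH9, a centrosomal protein, fell from 89.8 ± 2.44 to 76.4 ± 1.85 CPM (log2 fold change −0.23, FDR 4.43e-05), and C12orf65, which overlaps it on the opposite strand, had −0.08. ZBTB16, a zinc finger repressor that responds to androgen and also to glucocorticoid, fell from 70.9 ± 4.63 to 60.6 ± 1.17 CPM (log2 fold change −0.22, FDR 6.72e-04). In these 3 genes the groups did not overlap. FKBP5, which responds to the same hormones, rose in these libraries, and whether these hormones bear on either change was not tested.

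ACPP, the gene of prostatic acid phosphatase, rested on few reads. It had 101, 84 and 75 counts in parental and 49, 51 and 83 counts in resistant libraries, and resistant library 3 lay within the parental range in CPM. The log2 fold change was −0.49 (SE 0.19, FDR 0.0350). It lost significance in 4 of the 6 fits that each left out 1 library, namely without parental library 1 (−0.43, FDR 0.109), parental library 3 (−0.496, FDR 0.0674), resistant library 1 (−0.33, FDR 0.230) and resistant library 2 (−0.43, FDR 0.126), and it was −0.76 without resistant library 3.

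Several well-known targets showed no detectable difference, with narrow intervals where counts were high. CAMKK2, a kinase that activates AMPK, had a log2 fold change of 0.01 (95% interval −0.07 to 0.10), and ZBTB10, a zinc finger protein, had −0.02 (95% interval −0.07 to 0.03) at 867 ± 16.7 CPM (SD, n = 3) in parental and 856 ± 11.6 CPM in resistant cells. NDRG1, a stress-responsive gene that also follows hypoxia, had 0.07 (95% interval −0.07 to 0.21). CENPN, a centromere protein, had 0.08 (95% interval −0.02 to 0.17), and its locus overlaps CMC2 on the opposite strand, which had more counts and a log2 fold change of 0.39.

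SORD, the sorbitol dehydrogenase gene, had a log2 fold change of −0.13 (95% interval −0.24 to −0.02, FDR 0.0587) and passed without parental library 1 (−0.15, FDR 0.0462). All its resistant libraries lay under all parental ones, and reads that fit its pseudogene SORD2P equally well could be split between them. GNMT, a glycine methyltransferase, had between 49 and 86 counts in every library and a log2 fold change of 0.34 (95% interval −0.03 to 0.71), which passed without parental library 2 (0.54, FDR 0.0383). The gene PEX6 overlaps GNMT on the opposite strand, had up to 1006 counts in a library and a log2 fold change of 0.31.

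Targets with few counts had wide intervals. NNMT, a nicotinamide methyltransferase, had 65, 44 and 39 counts in parental and 37, 31 and 31 counts in resistant libraries, with a log2 fold change of −0.56 (95% interval −1.04 to −0.08, FDR 0.0607). Its resistant libraries all lay under the parental ones in CPM, and it passed without parental library 2 (−0.67, FDR 0.0439). TMC6, at about 6 CPM in both lines, had −0.01 (95% interval −0.33 to 0.31). MAF, a basic leucine zipper factor, had 17, 12 and 9 counts against 6, 5 and 11, with −0.76 (95% interval −1.69 to 0.17), and no difference was detectable at this depth.

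ADAM7 and TRPM8 were not tested. ADAM7, an ADAM family gene of the epididymis, had 5, 12 and 3 counts in parental and 1, 4 and 1 counts in resistant libraries. TRPM8, the cold-sensing channel that the luminal prostate expresses under androgen, had 2, 4 and 1 counts in parental libraries and 0 in all resistant libraries. Both lie at or near the limit of 3 counts in most libraries, so whether they differed between the lines was not tested.

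The summed CPM of all 32 members was 3673 to 3753 in parental libraries and 4221 to 4266 in resistant libraries. The 7 members that rose by more than 0.5 on the log2 scale went from between 771 and 802 CPM to between 1356 and 1397 CPM. The other 25 members together went from between 2903 and 2951 CPM to between 2865 and 2894 CPM. These sums are a description, since the members were split by their own values.

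Lists of other genes of the pathway were read beside the members. They were written from general knowledge, but with earlier results of these data known. Of 22 other cofactors of the receptor, all tested, 1 rose (4.55%, against 17.1% of all genes tested) and 6 fell (27.3%, against 18.4%), with a median log2 fold change of −0.05 and a range from −0.48 to 0.32. NCOA4, a coactivator that is also the receptor for ferritin turnover, rose (log2 fold change 0.32, FDR 5.29e-11). HOXB13, the homeobox factor of prostate identity that is also in the luminal marker list, had the lowest value and fell from 439 ± 4.18 to 315 ± 11.3 CPM (log2 fold change −0.48, FDR 2.29e-17).

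The list of other androgen-responsive genes held 65 genes, of which 64 were tested. Here 19 rose (29.7%, against 17.1% of all genes tested) and 23 fell (35.9%, against 18.4%), with a median log2 fold change of −0.03. An absolute value of 1 was passed by 2 genes that rose, KRT19 (3.15) and PTGER4 (1.27), and by 1 that fell, IQGAP2 (−1.91). Such small counts among 64 genes are near the all-gene shares of 2.53% and 2.84%. By the lower measure read for the members (past 0.5), 8 of the 64 rose (12.5%, against 5.63% of all genes). By that measure 6 of the 64 fell, against 6.29% of all genes. Changes of that size thus went both ways in this list. The members had 7 and 0 by that measure, but the 0 depends on the threshold. ACPP (−0.49) and HOMER2 (−0.47) passed the FDR and lay just inside it. Since the members and this list were chosen with earlier results known, the counts are a description and not a comparison. KRT19, a luminal and simple-epithelial keratin, went from 9.02 ± 0.18 to 80.1 ± 4.60 CPM (FDR 2.81e-32). PTGER4, a prostaglandin E2 receptor, went from 8.09 ± 0.34 to 19.5 ± 0.65 CPM (FDR 1.74e-13). IQGAP2, a GTPase-binding scaffold, went from 6.20 ± 0.62 to 1.64 ± 0.068 CPM (FDR 2.77e-10).

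HMGCS1, an early enzyme of cholesterol synthesis, had the next lowest value of that list (−0.77, FDR 1.00e-20). INSIG1, which restrains sterol synthesis (−0.49, FDR 4.50e-16), and IDI1, an isomerase of the same pathway (−0.32, FDR 4.71e-10), were picked out after their values were seen, and both fell.

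**Figure D4:**
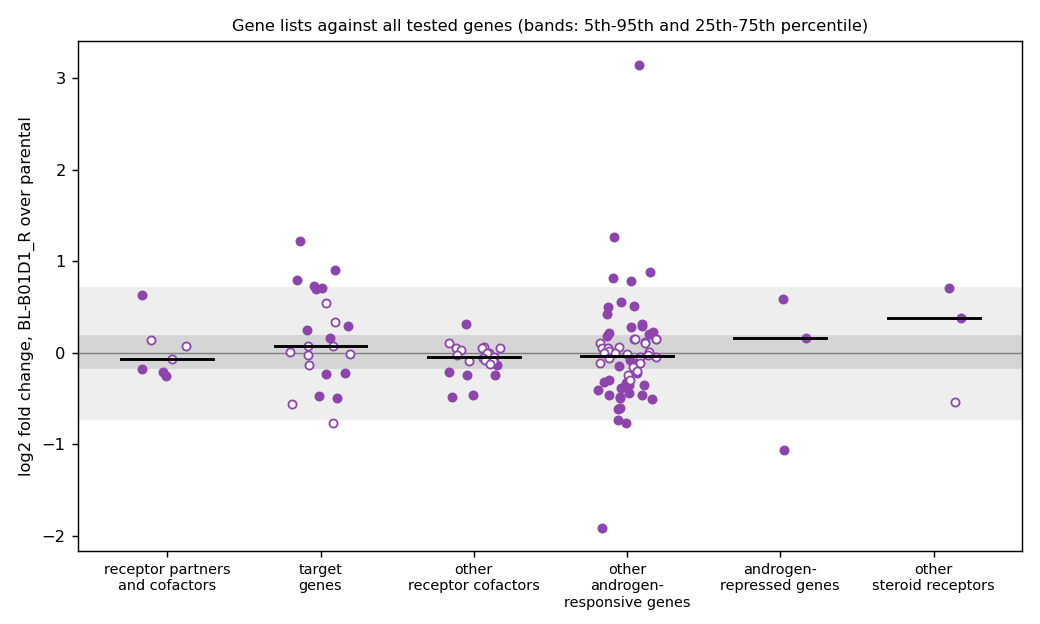
Log2 fold changes of BL-B01D1_R over parental cells for the tested genes of each list (filled symbols, FDR of less than 0.05 in edgeR's test; black bars, medians), over bands that hold the middle of all 17142 tested genes. The wide band runs from −0.72 to 0.704 (5th to 95th percentile) and the narrow one from −0.16 to 0.18 (25th to 75th), and list medians lie inside the narrow band except that of the steroid receptors (0.38).

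Of 5 genes known to be repressed by androgen, 3 were tested, too few to set beside the shares of all genes. MET, the hepatocyte growth factor receptor, rose from 9.75 ± 1.43 to 14.6 ± 0.52 CPM (log2 fold change 0.58, FDR 5.20e-05), and PEG10, a retrotransposon-derived gene, rose from 1343 ± 9.16 to 1505 ± 21.0 CPM (0.16, FDR 9.61e-08). UGT2B15, which encodes an enzyme that conjugates androgen for removal, fell from 11.0 ± 1.53 to 5.28 ± 0.10 CPM (−1.06, FDR 2.88e-08). UGT2B15 has near-identical paralogs between which reads can be split, so its value is uncertain. Its paralog UGT2B17, also on this list, had 1 to 5 counts in every library, and how shared reads were assigned was not tested.

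The related steroid receptors were also read, since they bind similar DNA elements. Among 5 receptor genes, 3 were tested and 2 rose, again too few for a share. NR3C1, the glucocorticoid receptor, had 38.9, 36.1 and 38.0 CPM in parental and 47.4, 47.0 and 52.3 CPM in resistant libraries (log2 fold change 0.38, SE 0.062, FDR 3.61e-06). NR3C2, the mineralocorticoid receptor, had 22.5, 20.8 and 21.8 CPM in parental and 36.9, 35.5 and 33.8 CPM in resistant libraries (0.71, SE 0.073, FDR 1.49e-10). The libraries of the lines did not overlap for either gene, and whether these transcripts bear on FKBP5 or other shared targets was not tested.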

How the data were processed

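RNA-Seq of 6 libraries was analysed, 3 for each group, mapped to groups by the sample titles. Although the organism field of the labels says mouse, the identifiers and the build belong to human, which is how the table was treated. The authors mapped reads to hg38 with HISAT2 (2.0.5), counted them per gene with featureCounts (1.5.0-p3) and deposited raw counts, with gene length as another quantity in the table. The annotation release and strand setting are not given in the sources used here. All 6 columns of per-sample values were used. Some genes of the pathway are not reported here.

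Counts were filtered with filterByExpr, scaled with TMM and compared by the quasi-likelihood test of edgeR (4.0.16, under R 4.3.3), with Benjamini-Hochberg adjustment (FDR) over 17142 genes. The SE is the absolute log2 fold change divided by the square root of F, and 95% intervals use the t distribution. Intervals and floors of 3 counts cover these libraries only. FPKM was computed from the counts and gene lengths. Alternatives were limma-voom and limma on log2(FPKM + 1) (limma 3.58.1, named in the study's methods), DESeq2 (1.42.0), other scalings and filters, the replicate number as a block, and each library left out in turn. Scripts were tested on simulated data. Members called and those past 0.5 are given in full with all partners and cofactors, and the other members by summary. The members and lists were chosen with earlier results of these data known.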

Additional observations from a re-analysis of the deposited data

How the results depend on the processing

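Of the 419 log2 fold changes of tested members computed under the 14 alternatives, 394 kept their direction and their side of an FDR of 0.05, 10 lost significance, 8 gained it and 7 changed sign. The 7 belonged to 3 members that passed in none of these fits. CAMKK2 was −0.0023 with library size alone, −0.0021 with limma on log2(FPKM + 1) and −0.0044 to 0.030 with 1 library left out. TMC6 was 0.0022 with the replicate block and −0.13 to 0.13 with 1 library left out, and NDRG1 was −0.027 (without parental library 2) to 0.16. Outside the fits that left out 1 library, the FDR threshold was lost by NCOA1, SLC45A3 and ACPP with limma on log2(FPKM + 1) and by ACPP with DESeq2, and it was gained by SORD with library size alone. The causes were not tested. Members that rose numbered 9 to 12 and members that fell 5 to 8 over all alternatives. The number that fell by more than 0.5 was 1 in place of 0 with library size alone, limma-voom and the replicate block (ACPP in each), and ranged from 0 to 2 with 1 library left out, by ACPP, NNMT or HOMER2. Other cofactors that rose numbered 2 with limma-voom and from 1 to 2 with 1 library left out, against 1. All genes called higher and lower, 434 and 487, were 114 and 67 with limma on log2(FPKM + 1), and 248 and 287 with at least 10 counts in every library. Same-numbered libraries had no visible deviation in common over all genes, with correlations of −0.0196 to −0.00806. These values cannot tell whether same-numbered libraries were cultured or handled together. The replicate block gave 10 members that rose and 7 that fell. Low counts limit EAF2, GNMT, NNMT, ACPP, MAF, ADAM7 and TRPM8.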
